A study of Mus musculus with 5 samples.

Results

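The kinesin motor genes were taken as the protein-coding rows of the full gene table whose symbol is Kif or Kifc followed by a number, with or without letters after it. The rule found 42 genes of 40624 in the table, of which 22379 are protein-coding. They were sorted by known role into 14 mitotic kinesins, 17 transport kinesins, 6 kinesins tied to cilia and 5 others. Of the 42 genes, 39 passed a filter on low counts and were tested, and Kif2b (mitotic), Kif12 and Kif4b (both among the others) had 0 counts in every library.

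Polyadenylated RNA from the atria of C57BL/6 mouse pups at postnatal day 1 was sequenced in 5 libraries. The 3 control libraries carried SLN-Cre with 1 floxed copy of Nkx2-5 (SLN-Cre; Nkx2-5-flox/+), and the 2 mutant libraries carried SLN-Cre with both copies floxed (SLN-Cre; Nkx2-5-flox/flox). Nkx2-5 is a homeodomain transcription factor of heart muscle. Sln encodes sarcolipin, a calcium pump regulator of atrial myocytes, so the deletion is driven in those cells, and the controls share both the Cre and a floxed allele. The labels do not say whether each library is a separate animal, so p-values measure only the spread between these libraries. Libraries are named by the number in their labels: control 2, control 4, control 6, mutant 5 and mutant 7.

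Kinesins are ATP-driven motors that use microtubules as tracks. Mitotic kinesins build and pull apart the spindle, move chromosomes and complete cytokinesis, and most of their genes are transcribed late in the cell cycle. Transport kinesins carry vesicles, mitochondria and RNA, and are made in dividing and non-dividing cells alike. The atrium of a newborn mouse holds both, since part of its myocytes and other cells still divide.

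The libraries held between 58501214 and 78841494 counts in genes. Nkx2-5 was at 76.8, 72.1 and 71.3 CPM (counts scaled to a common library size) in the controls and at 5.79 and 5.21 CPM in the mutants, in the direction of the labels. Myl7, a light chain of atrial myosin, was at 9950 to 11100 CPM in all libraries. Counts of sex-linked genes put 1 male library in each group, control 4 and mutant 5. Over the 17835 genes tested with edgeR's quasi-likelihood test and Benjamini-Hochberg adjustment at 0.05, the median log2 fold change of mutant over control was 0.01. Of the 39 tested kinesins, 8 rose and 1 fell, where 6.58% of all tested genes passed in either direction, and their median log2 fold change was 0.14. The groups did not overlap in 20 of the 39 (19 higher and 1 lower), against 37.9% of all tested genes.

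Most mitotic kinesins stood higher in both mutant libraries than in any control, by a small amount. Of the 13 tested, 6 rose (Kif2c, Kif18b, Kif4, Kif23, Kif20a and Kif14), 0 fell and 7 did not pass the test. These 6 are 46.2% of the class, against 3.02% of all tested genes called higher. The fitted log2 fold change was above 0 in 13 of 13, where 51.3% of all tested genes were above 0, and its median was 0.32 (range 0.11 to 0.42). In 12 of the 13, both mutant libraries lay above all 3 controls, an ordering that 18.6% of all tested genes showed. At an unadjusted p under 0.05, 12 were higher and 0 lower, and both DESeq2 and limma-voom also called 0 lower. The share of all tested genes under that unadjusted threshold was not counted, so such counts have no background here or in the other lists. The count of 6 rests on few libraries: it was 0 without control 2 or without control 6 and 1 without control 4, while the median stayed between 0.28 and 0.36 over all single-library removals. In bulk tissue, more cells of a dividing type and more RNA per cell cannot be told apart. Marker sums of some other cell types were also higher in the mutants. For 3 smooth muscle markers the sum was 512 to 582 CPM in controls against 1890 and 1410 CPM. Most of it was Acta2, called higher at 366 to 435 CPM against 1690 and 1240 CPM, while Myh11 and Cnn1 did not pass. For 6 erythroid markers it was 676 to 846 against 1000 and 1030 CPM (5 of 5 tested log2 fold changes above 0, Hba-a1 called higher). For 5 endothelial markers it was 954 to 1010 against 1060 and 1330 CPM (5 of 5 above 0, 0 called). The sum of 4 macrophage markers overlapped between the groups, at 83.1, 75 and 90.5 CPM against 97.4 and 89.7 CPM. Of these markers, 4 of 4 were above 0 and 1 was called higher. Sums of ventricular myocyte, fibroblast, epicardial and skeletal muscle markers were lower in both mutants than in every control. Of the 4 ventricular markers, however, 1 was called higher, and the 3 with negative log2 fold changes did not pass. The sum of 5 atrial myocyte markers was also lower, at 24500 to 26600 against 20900 and 19700 CPM. Of these 5, Nppa was called lower (5280 to 6770 CPM in controls against 849 and 1190 CPM) and Bmp10 was called higher. Myl7, Myl4 and Sln did not pass, with log2 fold changes of -0.05, -0.01 and -0.17. The part of these cell types in the mitotic kinesin values was not tested.

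**Figure D1:**
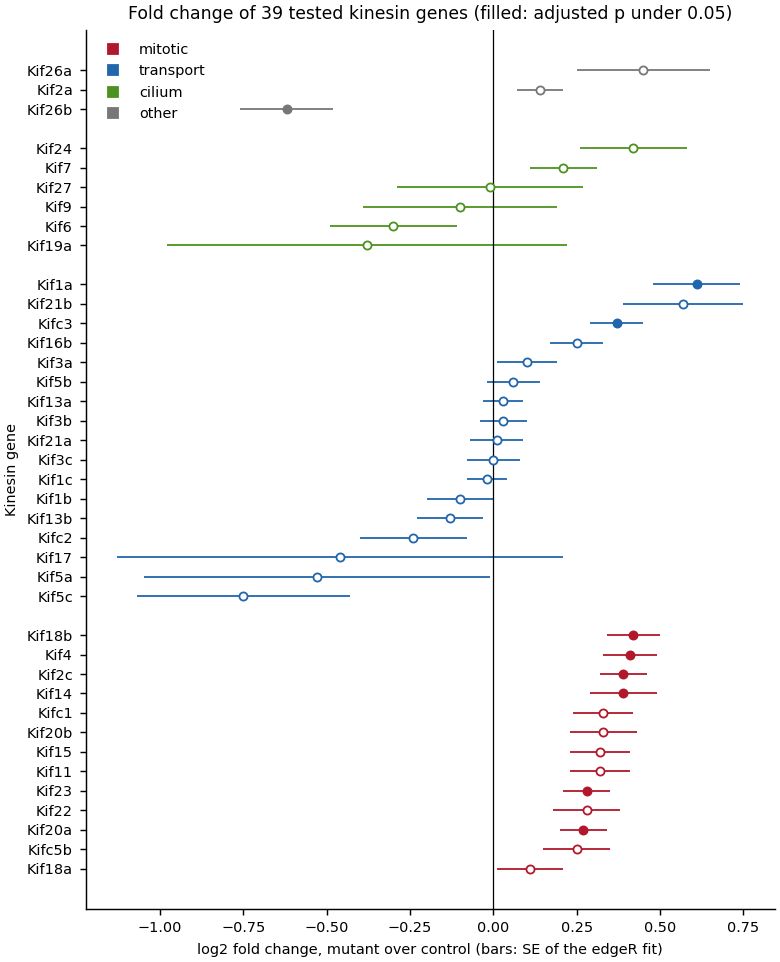
Fitted log2 fold change of each tested kinesin gene, mutant over control, with the standard error of the edgeR fit as a bar; colours give the class and filled points passed an adjusted p of 0.05. The 13 mitotic kinesins all lie to the right of 0, between 0.11 and 0.42, while the 17 transport kinesins lie on both sides, between -0.75 and 0.61.

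Among motors that act on the ends or the overlap of spindle microtubules, Kif2c (ENSMUSG00000028678, coding span chr4:116832772-116855096 on mm9), a depolymerase that corrects faulty chromosome attachment, stood at 36.3, 35.9 and 35.4 CPM in the controls and at 48.2 and 45.8 CPM in the mutants. The controls lay close together and both mutants stood clear of them. Its log2 fold change was 0.39 ± 0.07 (SE), from 35.8 ± 0.456 to 47.0 ± 1.65 CPM (mean ± SD, n = 3 and 2), with an adjusted p of 0.015 in edgeR's test. Kif18b (ENSMUSG00000051378, chr11:102767514-102777821), which shortens astral microtubules, was at 21.5, 22.7 and 21.2 CPM against 29.7 and 28.5 CPM. The groups did not overlap. Kif18b rose by 0.42 ± 0.08 on the log2 scale (SE), with an edgeR adjusted p of 0.016. Kif4 (ENSMUSG00000034311, chrX:97821808-97921998), a chromosome-bound motor that also shapes the central spindle, was at 38.0, 35.2 and 35.2 CPM against 50.8 and 45.3 CPM. Both mutants were above every control, with mutant 5 the higher. Kif4 rose by 0.41 ± 0.08 on the log2 scale, with an edgeR adjusted p of 0.022. Kif4 lies on the X chromosome, and within each sex its log2 ratio was 0.53 between the male libraries and 0.31 between the female ones. On its other strand, 15.1% of its exonic bases are also exon of Pdzd11, whose own log2 fold change was 0.03 ± 0.11. The calls of Kif2c and Kif4 were lost without any 1 of the controls (edgeR adjusted p up to 0.067 and 0.09), and that of Kif18b without control 2 or control 6 (up to 0.071).

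The other 3 mitotic kinesins that rose act in cytokinesis. Kif23 (ENSMUSG00000032254, mm9 coding span chr9:61765471-61794429), the motor of the centralspindlin complex, was at 63.8, 66.1 and 60.2 CPM in controls and 76.3 and 77.4 CPM in mutants. The mutants agreed closely and both exceeded the highest control. Its log2 fold change was 0.28 ± 0.07, with an edgeR adjusted p of 0.042. Kif20a (ENSMUSG00000003779), which brings mitotic kinases to the midzone, was at 76.2, 79.2 and 73.3 CPM against 95.5 and 88.6 CPM. Here too the groups were apart. Kif20a rose by 0.27 ± 0.07 on the log2 scale, with an edgeR adjusted p of 0.047. Of its exonic bases, 29.3% are shared with Cdc23 on the opposite strand, and Cdc23 had a log2 fold change of -0.07 ± 0.07. Kif14 (ENSMUSG00000041498, chr1:138364535-138424193), which localises citron kinase to the midbody, was the least abundant of the 6, at 11.7, 12.5 and 12.0 CPM against 14.9 and 16.6 CPM. No mutant value fell within the control range. Its log2 fold change was 0.39 ± 0.10 and its edgeR adjusted p was 0.0499, at the edge of the threshold. With sex as a covariate or with library totals in place of TMM scaling, Kif23, Kif20a and Kif14 no longer passed, and Kif20a and Kif14 did not pass in limma-voom. Without single libraries, edgeR adjusted p reached 0.15 for Kif23 (lost without any 1 of the 5), 0.16 for Kif20a (lost without any 1 of the controls or mutant 5) and 0.18 for Kif14 (lost without any 1 of the controls or mutant 7).

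Each of the 7 mitotic kinesins that did not pass had a positive log2 fold change. Kif11, the motor that slides spindle poles apart, was at 65.2, 75.6 and 65.2 CPM in controls and 80.0 and 90.9 CPM in mutants (0.32 ± 0.09, edgeR adjusted p = 0.075). Kif15, which can share that task, was at 21.1, 20.9 and 20.6 CPM against 24.1 and 28.1 CPM (0.32 ± 0.09, edgeR adjusted p = 0.067). In both genes the groups were apart and mutant 7 was the highest library. Kif20b, a further cytokinesis motor, was at 30.7, 31.6 and 28.4 CPM against 34.4 and 41.7 CPM (0.33 ± 0.10). Kif22, a chromosome arm motor, was at 49.1, 52.3 and 41.7 CPM against 61.3 and 54.2 CPM (0.28 ± 0.10). In Kif22 the lower mutant was just above the highest control. Kif18a, which damps the movement of chromosomes at the metaphase plate, was at 12.4, 13.6 and 12.4 CPM against 13.2 and 14.6 CPM. Kif18a was the 1 tested mitotic kinesin whose groups overlapped, and its log2 fold change of 0.11 ± 0.10 was the smallest of the class.

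Kifc1 and Kifc5b are minus-end motors; Kifc1 gathers microtubules at spindle poles. Kifc1 was at 42.2, 42.6 and 36.3 CPM in controls and 51.4 and 50 CPM in mutants (0.33 ± 0.09, edgeR adjusted p = 0.062). Kifc5b was at 16.4, 17.3 and 14.6 CPM against 18.2 and 20.0 CPM (0.25 ± 0.10). In both the mutants were above all controls and control 6 was the lowest. These genes are near copies: 45.8% of the 50-base windows of Kifc1 transcripts also occur in Kifc5b, so the split of counts between them is uncertain.

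**Figure D2:**
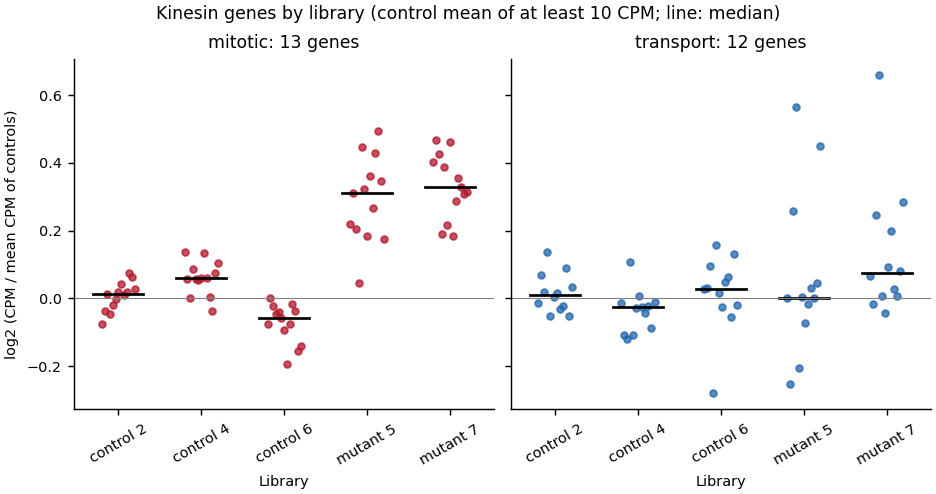
Each point is a kinesin gene with a control mean of at least 10 CPM, plotted as log2 of its CPM over its control mean, by library; the line is the median of the genes. All mitotic genes lie above 0 in both mutant libraries and scatter around 0 in the controls, while transport genes scatter around 0 in every library.

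The plot by library shows that control 6 was the lowest control for most mitotic kinesins. Within each sex, the median log2 ratio of the 13 mitotic kinesins was 0.23 in the male pair (mutant 5 over control 4). It was 0.36 in the female comparison (mutant 7 over controls 2 and 6). That 12 of the 13 were higher in both follows from their mutants lying above all controls, and is no separate result. Kif18a was the exception, at -0.05 in males and 0.23 in females. Kif11 was at 0.08 and 0.48 and Kif20b at 0.12 and 0.50. With 1 library of each sex in the mutant group, sex and library cannot be told apart.

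Promoter sequence was set beside these values because most mitotic kinesins differed in the same direction. Late cell cycle genes are known to carry a cell cycle homology region (CHR, read by the MuvB complex) with CCAAT boxes (read by NF-Y) upstream. RefSeq windows of 300 bases, 250 before to 50 after the gene start on GRCm38.p6, were given for 33 of the 42 members. The windows were searched on both strands for the CHR (TTTGAA or TTCGAA), the CCAAT box (CCAAT), an E2F site (TTTCGCGC or TTTGGCGC) and a site of the Nkx2-5 type (TNAAGTG). No matches of different motifs overlapped in the members' windows. The 8 windows printed are those of the 5 mitotic kinesins that rose and have an entry, of Kif11 and Kif18a as mitotic kinesins that did not pass, and of Kif1c as an abundant transport kinesin whose level differed little. They lie at chr4:117178723-117179022 (Kif2c, minus strand), chr11:102925075-102925374 (Kif18b, minus), chrX:100625815-100626114 (Kif4, plus), chr9:61946750-61947049 (Kif23, minus), chr1:136467598-136467897 (Kif14, plus), chr19:37376132-37376431 (Kif11, plus), chr2:109280488-109280787 (Kif18a, plus) and chr11:70700298-70700597 (Kif1c, plus). Each is written along the gene from 5′ to 3′, and capitals mark CCAAT, CHR and E2F matches on either strand.
Kif2c: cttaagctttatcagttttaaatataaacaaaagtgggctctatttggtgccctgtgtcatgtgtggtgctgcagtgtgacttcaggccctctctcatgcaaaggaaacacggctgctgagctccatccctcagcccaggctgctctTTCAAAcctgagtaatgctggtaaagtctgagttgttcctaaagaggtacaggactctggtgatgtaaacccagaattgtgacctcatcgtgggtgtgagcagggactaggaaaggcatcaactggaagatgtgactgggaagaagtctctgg
Kif18b: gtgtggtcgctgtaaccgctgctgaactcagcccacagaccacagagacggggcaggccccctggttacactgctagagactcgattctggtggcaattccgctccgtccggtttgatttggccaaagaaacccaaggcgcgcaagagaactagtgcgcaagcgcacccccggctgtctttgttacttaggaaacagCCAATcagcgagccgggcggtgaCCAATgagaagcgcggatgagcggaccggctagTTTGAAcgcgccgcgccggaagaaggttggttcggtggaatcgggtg
Kif4: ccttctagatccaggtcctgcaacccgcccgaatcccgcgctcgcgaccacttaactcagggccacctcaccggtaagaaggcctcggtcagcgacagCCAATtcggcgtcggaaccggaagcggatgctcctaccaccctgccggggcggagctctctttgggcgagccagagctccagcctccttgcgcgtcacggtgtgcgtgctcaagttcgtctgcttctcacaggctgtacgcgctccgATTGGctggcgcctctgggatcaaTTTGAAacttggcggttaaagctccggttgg
Kif23: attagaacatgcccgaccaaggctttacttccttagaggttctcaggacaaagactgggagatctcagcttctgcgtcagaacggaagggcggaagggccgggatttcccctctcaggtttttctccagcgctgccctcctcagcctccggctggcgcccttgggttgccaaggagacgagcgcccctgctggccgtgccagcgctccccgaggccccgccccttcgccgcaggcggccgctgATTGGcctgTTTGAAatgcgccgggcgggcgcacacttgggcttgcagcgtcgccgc
Kif14: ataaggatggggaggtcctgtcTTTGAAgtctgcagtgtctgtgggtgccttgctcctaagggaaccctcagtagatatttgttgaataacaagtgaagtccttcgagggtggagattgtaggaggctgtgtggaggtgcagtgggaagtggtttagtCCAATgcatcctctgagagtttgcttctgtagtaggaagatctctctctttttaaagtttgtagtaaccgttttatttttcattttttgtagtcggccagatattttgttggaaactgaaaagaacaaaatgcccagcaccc
Kif11: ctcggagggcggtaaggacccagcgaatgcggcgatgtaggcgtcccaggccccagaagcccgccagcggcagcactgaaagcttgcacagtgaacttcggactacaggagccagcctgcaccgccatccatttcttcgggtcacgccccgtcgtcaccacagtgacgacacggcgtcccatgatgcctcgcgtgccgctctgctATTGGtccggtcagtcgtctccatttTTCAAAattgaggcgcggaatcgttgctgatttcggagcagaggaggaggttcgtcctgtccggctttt
Kif18a: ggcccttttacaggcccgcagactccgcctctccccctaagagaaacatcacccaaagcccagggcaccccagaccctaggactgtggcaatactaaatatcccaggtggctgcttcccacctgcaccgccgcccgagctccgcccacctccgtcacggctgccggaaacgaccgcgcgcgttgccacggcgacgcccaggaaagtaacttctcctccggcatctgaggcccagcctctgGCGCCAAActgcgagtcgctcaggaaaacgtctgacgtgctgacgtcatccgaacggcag
Kif1c: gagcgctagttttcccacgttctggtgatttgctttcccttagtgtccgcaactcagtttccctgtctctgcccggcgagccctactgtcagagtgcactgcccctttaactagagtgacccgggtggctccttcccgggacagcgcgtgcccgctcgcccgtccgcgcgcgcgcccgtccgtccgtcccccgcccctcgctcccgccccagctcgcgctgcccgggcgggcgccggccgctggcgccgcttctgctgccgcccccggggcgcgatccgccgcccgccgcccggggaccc

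A CHR was found in 11 of the 13 mitotic kinesins with an entry (84.6%), in 1 of 11 transport kinesins (9.09%) and in 21.7% of the 27025 genes with a window. A CCAAT box was found in 9 of 13 mitotic (69.2%), 3 of 11 transport (27.3%) and 41.1% of all genes. Both motifs together occurred in 8 of 13 mitotic (61.5%), 0 of 11 transport and 8.61% of all genes. In the windows above, Kif18b has CCAAT boxes that start at -53 and -30 and a CHR at 4, counted from the gene start, and Kif11 has a CCAAT box at -45 and a CHR at -19. Kif23 and Kif4 show the same order, with a CCAAT box at -7 and a CHR at 3 in Kif23 and a CCAAT box at -5 and a CHR at 20 in Kif4. Kif14 has its CHR farther upstream, at -228, and Kif2c has a CHR at -103 and no CCAAT box.

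Kif18a, the mitotic kinesin with the smallest difference, and Kif2b, with 0 counts, were the 2 mitotic kinesins with no CHR match. The motifs were not limited to mitotic kinesins or to genes that rose: Kif26b, the 1 kinesin that fell, has a CCAAT box at -73 and a CHR at -9, and the cilium kinesins Kif24 and Kif27, neither of which passed the test, also hold both. The transport kinesin with a CHR was Kif1a, which rose. Its CHR lies at -44 in the window chr1:93082431-93082730, while its other window, chr1:93101825-93102124, holds none. Kif18a has an E2F match at -10, and such a match was also in Kif15 and in 0.929% of all genes. The window of Kif1c has none of these motifs. The Nkx2-5 type site was in 3 of 13 mitotic kinesins (Kif4, Kifc1 and Kifc5b), 0 of 11 transport kinesins and 13.1% of all genes. Base composition differs between the classes: the median GC content of the windows was 60.7% for mitotic and 69.3% for transport kinesins. Among all genes within the GC range of the mitotic kinesins, 21.1% held a CHR, and within that of the transport kinesins 9.92% did. A match is a stretch of letters and was not tested as a bound site. The RefSeq gene starts were taken as given, also for Kif14 and Kif2c, and whether each window is a promoter in use in the atrium was not tested.

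**Figure D3:**
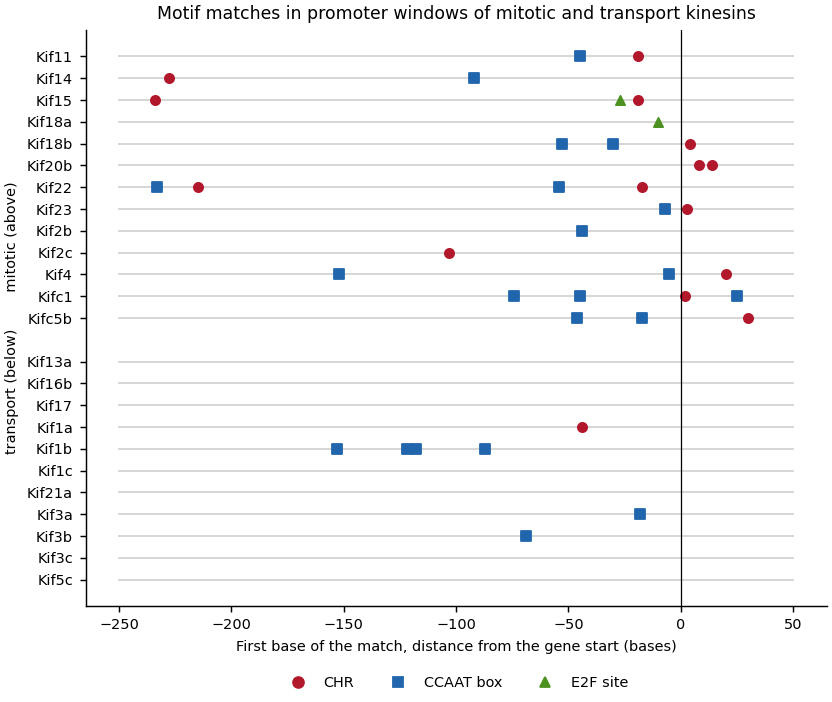
Position of each CHR, CCAAT and E2F match in the RefSeq promoter windows, in bases from the gene start, with mitotic kinesins above and transport kinesins below; 1 row may join several start sites of a gene. CHR matches lie in 11 of 13 mitotic rows and in 1 of 11 transport rows.

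The transport kinesins showed no common direction. Of 17 tested, 2 rose (Kif1a and Kifc3), 0 fell and 15 did not pass, with 9 log2 fold changes above 0 and 8 below. Their median was 0.01, equal to that of all tested genes, and the range was wide, from -0.75 to 0.61. Both mutants exceeded all controls in 4 of the 17 (23.5%), near the 18.6% of all tested genes. At an unadjusted p under 0.05, 1 was lower (Kif5c), and DESeq2 and limma-voom called 0 lower.

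Of the 5 transport kinesins most abundant per length, Kifc3 rose, as described with Kif1a, and the other 4 did not pass the test. Kif5b, the heavy chain of conventional kinesin in most cells, was at 215, 210 and 244 CPM in controls and 230 and 236 CPM in mutants (log2 fold change 0.06 ± 0.08). Kif1c, a carrier of vesicles and messenger RNA, was at 268, 262 and 270 CPM against 268 and 259 CPM (-0.02 ± 0.06). Kif13a, an endosome motor, was at 106, 106 and 109 CPM against 107 and 112 CPM (0.03 ± 0.06). The mutant values of all 3 fell within or next to the control range. Kif1b, which moves mitochondria and vesicle precursors, was at 160, 154 and 185 CPM against 144 and 167 CPM (-0.10 ± 0.10), with overlapping groups. The subunits of heterotrimeric kinesin-2, Kif3a and Kif3b, had log2 fold changes of 0.10 ± 0.09 and 0.03 ± 0.07. Kif3a was at 28.0, 28.1 and 29.6 CPM in controls and 28.3 and 32.8 CPM in mutants, and Kif3b was at 30.4, 30 and 32.3 CPM against 31.6 and 31.5 CPM. Their relative Kif3c was at 17.9 to 19.8 CPM in all libraries, with a log2 fold change of 0.00 ± 0.08. The groups overlapped in each of these 3 genes.

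Kif1a (ENSMUSG00000014602, mm9 coding span chr1:94915034-94978998), best known as a carrier of synaptic vesicle precursors, was at 24.3, 23.8 and 18.2 CPM in controls and at 32.7 and 34.9 CPM in mutants. Control 6 was the lowest and both mutants were above every control. Kif1a rose by 0.61 ± 0.13 on the log2 scale, a 1.53-fold difference, with an edgeR adjusted p of 0.028. Its call was lost without control 4, without mutant 5, without mutant 7 and with sex as a covariate, where the edgeR adjusted p was 0.068; without single libraries it reached 0.15. Kifc3 (ENSMUSG00000031788, chr8:97624569-97661980), a minus-end motor of epithelial junctions and Golgi positioning, was at 29.7, 28.8 and 28.6 CPM against 39.6 and 35.3 CPM. The controls were tight and the mutants clear of them. Kifc3 rose by 0.37 ± 0.08 on the log2 scale, with an edgeR adjusted p of 0.029. The Kifc3 call was lost without any 1 of the controls or without mutant 5 (edgeR adjusted p up to 0.10).

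Kif5c and Kif5a, heavy chains enriched in neurons, gave the most negative values of the class, and neither passed. Kif5c was at 3.88, 3.56 and 2.37 CPM in controls and 1.36 and 2.53 CPM in mutants (-0.75 ± 0.32, edgeR adjusted p = 0.23). Kif5a was at 5.14, 4.61 and 2.37 CPM against 1.55 and 4.04 CPM (-0.53 ± 0.52). In both, controls 2 and 4 were the highest libraries and mutant 5 the lowest, and the groups overlapped. The summed CPM of 8 neuron and Schwann cell markers was 31.1, 35.8 and 20.2 in controls and 14.2 and 23.6 in mutants, also with controls 2 and 4 highest and mutant 5 lowest, and 0 of the 8 markers passed the test. Its part in the Kif5a and Kif5c values was not tested. Kif21b was at 3.94, 3.43 and 4.16 CPM against 4.82 and 6.64 CPM (0.57 ± 0.18, edgeR adjusted p = 0.098), with mutant 7 well above the rest. Kif16b, an early endosome motor, was at 29.5, 26.8 and 31.1 CPM against 34.8 and 34.5 CPM (0.25 ± 0.08, edgeR adjusted p = 0.13), with groups apart. Kif13b was at 18.9, 16.7 and 18.4 CPM against 15.1 and 17.8 CPM (-0.13 ± 0.10), and Kif21a at 17.9 to 18.4 CPM against 17.3 and 19.4 CPM (0.01 ± 0.08). The groups overlapped in both. Kifc2 was at 4.88, 4.62 and 5.72 CPM against 3.95 and 4.67 CPM (-0.24 ± 0.16). Kif17 stayed at or under 1.39 CPM in every library and spread widely among controls, with a control coefficient of variation of 77.1% (-0.46 ± 0.67).

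Within each library, the mitotic kinesins were then set against the transport kinesins. The summed level per length of the mitotic kinesins was 112, 117 and 104 CPM per kilobase in controls and 138 and 137 in mutants, while that of the transport kinesins was 97.2, 94.7 and 101 against 100 and 103. The mitotic sums did not overlap between the groups and the transport sums did. The ratio of mitotic to transport counts, which does not depend on the scaling of libraries, was 0.501, 0.537 and 0.449 in controls and 0.611 and 0.591 in mutants, or 0.496 ± 0.0442 (SD, n = 3) against 0.601 ± 0.0141 (n = 2). Mitotic kinesins took 30.8% ± 1.82 of all kinesin counts in controls and 35.0% ± 0.636 in mutants. No test was run on these sums, and with 2 libraries against 3 an exact two-sided permutation test cannot go below 0.1.

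**Figure D4:**
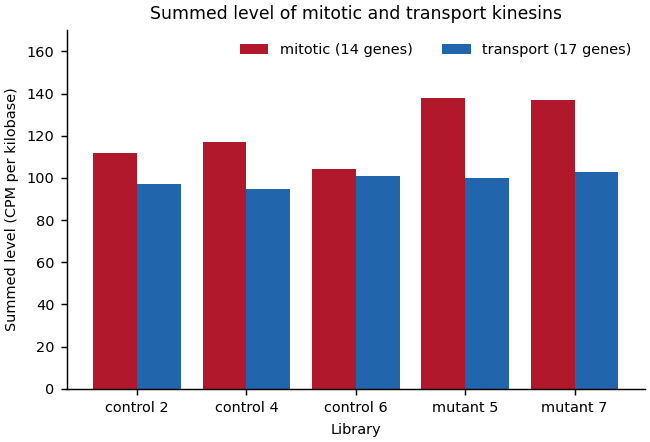
Summed level of the mitotic (14 genes) and transport (17 genes) kinesins in each library, in CPM per kilobase of the table's gene length, on an axis from 0. The mitotic bars are 104 to 117 in controls and 137 to 138 in mutants, while the transport bars stay between 94.7 and 103 throughout.

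Per length, the order of the kinesins mixed both classes. In controls the highest means were Kif5b at 24.2, Kif22 at 23.1, Kif1c at 22.2 and Kif20a at 19.4 CPM per kilobase, followed by Kif13a at 15.3, Kif23 at 14.8 and Kif11 at 14.2. Kif22 and Kif5b overlapped in their control libraries, at 20.2 to 25.3 and 22.8 to 26.5 CPM per kilobase. In mutants Kif22 stood first at 28.0, ahead of Kif5b at 25.3, Kif20a at 23.5 and Kif1c at 22.0. At the low end of the tested genes were Kif17 at 0.128 and Kif19a at 0.0545 CPM per kilobase in controls. The lengths are those of the deposited table, and a transcript shorter than its gene model would be understated.

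**Figure D5:**
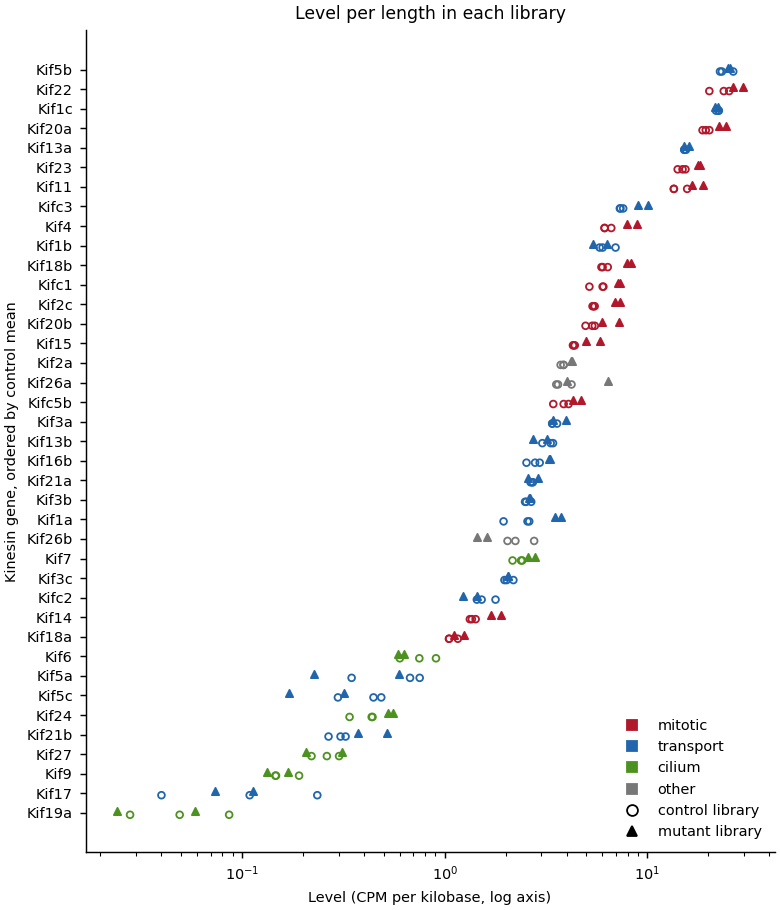
Level of each kinesin gene in each library, in CPM per kilobase on a log axis, ordered by the control mean. Kif5b, Kif22, Kif1c and Kif20a lead in the controls at 24.2, 23.1, 22.2 and 19.4 CPM per kilobase, and the mutant points of mitotic genes sit to the right of their control points in most rows.

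None of the 6 cilium kinesins passed edgeR's test in either direction, with 1 at an unadjusted p under 0.05 (Kif24) and 0 called by DESeq2 or limma-voom. Their median log2 fold change was -0.06. Kif24, which restrains cilium assembly at the centriole, was at 4.97, 5.01 and 3.87 CPM in controls and 6.00 and 6.33 CPM in mutants (0.42 ± 0.16, edgeR adjusted p = 0.17). Kif7, a regulator of Hedgehog signalling at the cilium tip, was at 9.79, 10.7 and 10.9 CPM against 11.7 and 12.6 CPM (0.21 ± 0.10). These were the 2 members of the class with groups apart, or 33.3% of 6, against 37.9% of all tested genes in either direction. Kif6 was at 4.31, 5.38 and 6.50 CPM against 4.51 and 4.23 CPM (-0.30 ± 0.19), and its groups overlapped. Kif19a, a motor of motile cilia, rested on 9, 16 and 29 counts against 25 and 9 counts, too few to show a difference of moderate size (-0.38 ± 0.60). The summed CPM of markers of multiciliated cells was 0.252 to 0.475 in all libraries, near 0. Kif9 and Kif27 stayed at 0.732 to 1.39 CPM in all libraries and had log2 fold changes of -0.10 ± 0.29 and -0.01 ± 0.28.

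Kif26b (ENSMUSG00000026494, mm9 coding span chr1:180459694-180862359), an atypical kinesin known from the adhesion of mesenchymal cells, was the 1 kinesin that fell, against 3.57% of all tested genes called lower. It was at 17.3, 23.4 and 18.9 CPM in controls and 13.7 and 12.2 CPM in mutants. Control 4 was the highest library and both mutants were below every control, an ordering seen in 19.2% of all tested genes. Its log2 fold change was -0.62 ± 0.14 (SE), from 19.8 ± 3.17 to 12.9 ± 1.11 CPM (SD, n = 3 and 2), with an edgeR adjusted p of 0.036. The call was lost without control 4, control 6 or either mutant (edgeR adjusted p up to 0.16), with the log2 fold change between -0.71 and -0.49. The summed CPM of 4 fibroblast markers was 2540 to 3140 in controls and 2070 and 2060 in mutants, with 0 of 4 passing. That of 2 epicardial markers was 459 to 562 against 310 and 305, with 1 of 2 lower (Upk3b). Their part in the Kif26b value was not tested. Within each sex, the Kif26b log2 ratio was -0.77 in males and -0.57 in females.

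Its relative Kif26a, which binds microtubules and signals in enteric neurons, was at 24.9, 29.1 and 24.5 CPM in controls and 27.6 and 44.0 CPM in mutants (0.45 ± 0.20, edgeR adjusted p = 0.28). Mutant 7 alone was high. The summed CPM of 5 endothelial markers was 954 to 1010 in controls, 1060 in mutant 5 and 1330 in mutant 7, and its part in the Kif26a value was not tested. Kif2a, a depolymerase with roles in both spindles and neurons, was at 41.6, 40.2 and 41.6 CPM against 45.1 and 45.5 CPM (0.14 ± 0.07, edgeR adjusted p = 0.30), with groups apart. Counted as a mitotic kinesin it left the median of that class at 0.32.

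Genes that work with the mitotic kinesins also had positive differences. Of 33 spindle, centromere and cytokinesis partners, 6 rose (Ccnb1, Cenpe, Top2a, Cdca8, Incenp and Cdc20), 0 fell and 27 did not pass, while 33 of 33 log2 fold changes were above 0 (median 0.27). The 6 are 18.2% of the list, against 3.02% of all tested genes called higher. In 30 of the 33 both mutants lay above all controls (90.9%, against 18.6% of all tested genes). An unadjusted p under 0.05 was found for 26, 0 of them lower, with the share over all tested genes not counted. DESeq2 and limma-voom also called 0 lower. Cenpe, the centromere kinesin whose symbol lies outside the naming rule, was at 33.1, 34.3 and 34.1 CPM in controls and 42.7 and 49.9 CPM in mutants (0.45 ± 0.09, edgeR adjusted p = 0.018). Ccnb1, the cyclin that drives entry into mitosis, was at 85.4, 84.2 and 79.3 CPM against 104 and 105 CPM (0.33 ± 0.06, edgeR adjusted p = 0.016). Top2a, which untangles chromosomes, was at 231, 235 and 226 CPM against 285 and 283 CPM (0.30 ± 0.06). The groups were well apart in all 3 genes. Mki67, a marker of cycling cells, was at 147, 156 and 155 CPM against 163 and 220 CPM and did not pass (0.33 ± 0.12, edgeR adjusted p = 0.17). A set of 6 proliferation markers is no separate list, since all but Cenpf are also among the 33 partners. The summed CPM of these markers was 659 to 692 in controls and 799 and 870 in mutants. Of them, 3 of 6 were called higher (Cenpf, Ccnb1 and Top2a) and 6 of 6 were above 0. Their part in the kinesin values was not tested. The count of 6 partners was 0 without any 1 of the controls, and 3 in limma-voom, with library totals alone or with sex as a covariate.

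Of 23 transcription regulators of the cell cycle, 2 rose, 1 fell and 20 did not pass (median 0.08). These are 8.70% higher and 4.35% lower, against 3.02% and 3.57% of all tested genes. Foxm1, an activator of late cell cycle genes, was at 41.6, 40.5 and 38.7 CPM in controls and 52.5 and 53.0 CPM in mutants (0.39 ± 0.07, edgeR adjusted p = 0.015). E2f3 rose by 0.41 ± 0.08 on the log2 scale, and Tfdp2, a binding partner of E2F proteins, fell by 0.33 ± 0.07. The Foxm1 groups were apart, with both mutants at nearly the same level. Among removals of 1 control, the Foxm1 and Tfdp2 calls were lost without any of them, and that of E2f3 without control 2 or control 4. The edgeR adjusted p of Foxm1 reached 0.065. Over all single-library removals the log2 fold change was 0.36 to 0.45 for E2f3 and -0.39 to -0.27 for Tfdp2. The Tfdp2 call was also lost with sex as a covariate.

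On the transport side, 23 kinesin light chains, adaptors and cargo linkers had a median log2 fold change of 0.04, with 2 higher, 2 lower and 19 not passing. Each direction holds 8.70% of the list, against 3.02% of all tested genes called higher and 3.57% called lower. Arl8a, a lysosomal GTPase that recruits kinesins, was at 40.1, 36.8 and 35.2 CPM in controls and 52.3 and 53.6 CPM in mutants (0.50 ± 0.08, edgeR adjusted p = 0.0082). Fez2 rose by 0.35 ± 0.09 on the log2 scale. Mapk8ip1, a scaffold that links cargo to kinesin light chains, was at 16.5, 15 and 15.5 CPM against 12.1 and 11.2 CPM (-0.43 ± 0.10, edgeR adjusted p = 0.036), and the light chain gene Klc4 fell by 0.34 ± 0.08. In Arl8a and Mapk8ip1 the mutants stood apart from all controls, on opposite sides. The Arl8a call held without each single library, with an edgeR adjusted p of at most 0.046, while Fez2, Mapk8ip1 and Klc4 were lost without any 1 of the controls (up to 0.16, 0.15 and 0.13). With sex as a covariate, 1 adaptor was called higher and 0 lower. Of 24 subunits of dynein and dynactin, the motor complex that runs the other way, 0 passed edgeR's test and 4 had an unadjusted p under 0.05 (3 higher, 1 lower). DESeq2 called 1 of the 24, lower, and limma-voom called 0.

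In the authors' deposited table, 5 kinesins had an adjusted p under 0.05, as did 4.54% of all genes with a value. They were Kif1a (0.0013), Kif4 (0.006), Kif2c (0.013), Kif18b (0.014) and Kifc3 (0.027). All 5 were also called by edgeR. Kif23, Kif20a, Kif14 and Kif26b had values of 0.13, 0.13, 0.085 and 0.16 in the authors' deposited table.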

How the data were processed

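Gene counts of polyadenylated RNA from 5 atrial libraries were deposited as whole-number counts per gene, with TopHat2 2.0.4, HTSeq 0.5.4p3, DESeq and genome build mm9 named, with no order, in the submitters' processing notes. The deposited table also holds the authors' RPKM, 1 value per group that follows the pooled counts, their log2 fold changes and their p-values, raw and adjusted. No label, note or header states the strand setting of the counting. Rows for reads in no gene (3.97 to 6.03%) or in more than 1 gene (2.31 to 3.18%) were left out.

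Counts were filtered (edgeR filterByExpr, minimum count 10, minimum total 15), scaled by TMM and tested with edgeR 4.0.16 quasi-likelihood in R 4.3.3, mutant (n = 2) against control (n = 3), with a prior count of 0.125 and Benjamini-Hochberg adjustment at 0.05 over all 17835 tested genes. CPM uses TMM-scaled library sizes, and CPM per kilobase divides it by the table's gene length. The procedure was tested on simulated data, where null p-values were calibrated but the share of false calls at an adjusted p of 0.05 exceeded the nominal share, so calls close to the threshold are the least certain. Alternatives were DESeq2 1.42.0, limma-voom 3.58.1, other scalings and filters, sex as a covariate, a 0.01 threshold and leaving out each library. All per-sample columns were used. At 58501214 to 78841494 counts per library, counting error is small for abundant genes, and the number of libraries limits their precision. It is larger for genes with few counts, such as Kif19a at 9 to 29 counts.

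Members and gene lists were chosen with earlier results of these data known. Values in every library are given for each tested mitotic kinesin, each kinesin called, the 5 most abundant transport kinesins by the authors' control RPKM and the 3 largest differences of each class. Kif1c for the printed promoters and the other kinesins named were added after their values were seen. The deposited gene positions are coding spans, which matched GENCODE coding lengths within 3 bases for 39 of 41 members compared. Promoter windows are RefSeq, GRCm38.p6, and their coordinates were not joined to mm9. Of 37 windows of members, 33 had their last 25 bases in a GENCODE transcript of the gene. No sequence from chromosome 18 is printed. 1 result on a gene that is no member is not reported here.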

Additional observations from a re-analysis of the deposited data

How the results depend on the processing

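No paired analysis was possible because the groups share no replicate number. The mitotic median log2 fold change was 0.29 to 0.33 under every other tool, scaling, filter and covariate run, and 0.28 to 0.36 without single libraries (0.32 as reported). The number of calls was less stable, and the cause was not tested. Mitotic kinesins called higher, 6 as reported, numbered 10 in DESeq2, 10 with no filter on low counts, 3 with library totals alone, 3 with sex as a covariate, 0 at a threshold of 0.01 and 0 to 7 without single libraries. All kinesins called higher, 8 as reported, numbered 5 with library totals alone, 4 with sex as a covariate, 0 at 0.01 and 1 to 9 without single libraries. The 1 kinesin called lower was lost at 0.01, where 0 remained, and the count was 0 to 1 without single libraries. Transport kinesins called higher, 2 as reported, numbered 1 with sex as a covariate, 0 at 0.01 and 0 to 1 without single libraries. Over all genes, 538 higher and 636 lower calls became 960 and 1044 in DESeq2, 157 and 234 at 0.01, and 203 to 910 and 306 to 804 without single libraries. Partners of the spindle called higher, 6 as reported, numbered 13 in DESeq2, 13 with no filter, 3 with library totals alone, 3 in limma-voom, 3 with sex as a covariate and 0 at 0.01. With sex as a covariate, lower calls went from 2 to 0 among transport adaptors and from 1 to 0 among cell cycle regulators.

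Signs turned only in kinesins that had not passed. Kif13a was at -0.0036 with library totals alone and at -0.0078 to 0.066 without single libraries. Without single libraries, Kif19a ranged from -1.17 to 0.12, Kif1b from -0.21 to 0.0064 and Kif1c from -0.041 to 0.0037. Outside single-library removals, Kif2c, Kif18b, Kif4, Kifc3 and Kif26b stayed under an edgeR, DESeq2 or limma adjusted p of 0.05 in every setting run. With library totals alone the median log2 fold change of all genes was -0.03, against 0.01 as reported.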
